A study of Mus musculus with 13 samples.

Results

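The genes described here are 30 genes of the oligodendrocyte lineage and of myelin, measured by RNA sequencing in mouse frontal cortex. A list of the lineage's known genes was taken, and a gene was kept where its summed expected count over all 13 libraries was at least 10. All 30 listed genes met this rule, out of 55536 gene identifiers in the deposited files, and all 30 also passed the filter on low counts that left 17483 genes for testing. The count filter used no comparison between groups, but the 30 genes and all lists were chosen with earlier results of these data known. The groups were 5XFAD mice at 11 months (3 libraries), wild-type (WT) B6SJLF1/J mice at 11 months (3 libraries), 5XFAD mice at 6 months (3 libraries) and WT B6SJLF1/J mice at 6 months (4 libraries). In the 5XFAD line, transgenes are driven in neurons by Thy1 sequence, and amyloid plaques form with age. The labels give no background strain for the 5XFAD libraries, and they do not say whether each library is a separate animal. The p-values therefore reflect no more than library-to-library spread, part of which may be technical. By Xist and Y-linked genes, every group but 6-month 5XFAD held both sexes, so not all libraries of those groups came from the same animal.

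Oligodendrocytes wrap the axons of the central nervous system in myelin, a stack of membrane that is rich in lipid and held together by a small set of abundant proteins. They arise from precursor cells that carry the growth factor receptor Pdgfra and the proteoglycan Cspg4 (also called NG2), that persist through adult life, and that pass through a short newly formed stage before they myelinate. The transcription factors Olig1, Olig2, Sox10 and Nkx2-2 are carried through much of the lineage, and Myrf, Gpr17, Enpp6, Bcas1 and Tcf7l2 are best known from the newly formed stage or the turn to myelination. In mouse models of amyloid deposition, mature oligodendrocytes have been described to take on an inflammatory state. The 30 genes were therefore set out as 2 precursor genes, 4 lineage factors, 5 newly formed genes and 19 myelinating genes.

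The libraries held 23618289 to 26615772 counts, with 7.89% to 11.43% of them from mitochondrial genes. The libraries of WT replicate 3 at 6 months, 5XFAD replicate 2 at 11 months and WT replicate 1 at 11 months stood apart for myelin genes, as described beside the results they touch. Sex is not in the labels. By Xist and Y-linked genes, the 11-month 5XFAD libraries were 2 female and 1 male, the 11-month WT libraries 1 female and 2 male, the 6-month 5XFAD libraries all male, and the 6-month WT libraries 2 female and 2 male. The tissue label was met by neuron markers, which were well expressed in all 13 libraries (a summed 2885 to 4369 TPM over 7 genes). TPM is relative transcript abundance, scaled for transcript length and library total. Pmp2, a marker of Schwann cells, the myelinating cells of peripheral nerve, was at 0 counts in 8 of the 13 libraries. Striatal markers ran from 237 to 2502 summed TPM over 6 genes, and choroid plexus markers reached 4235 TPM in WT replicate 1 at 6 months against 4.16 to 47.7 TPM in the other libraries.

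On the TPM scale, which allows levels of different genes to be compared, the 30 genes spanned a wide range, with myelinating genes at the top. Mbp, the basic protein that compacts the cytoplasmic faces of myelin, had the highest level, at a mean of 3691 TPM over the 13 libraries. Mobp, another basic myelin protein, followed at 1020 TPM and Trf, the iron carrier transferrin, at 643 TPM. Below them came Plekhb1 at 511 TPM, the lipocalin Apod at 408 TPM and the pteridine reductase Qdpr at 402 TPM. The lowest of the 19 myelinating genes, Ugt8a, which makes the myelin lipid galactosylceramide, stood at 15.6 TPM. Among newly formed genes Bcas1 averaged 180 TPM and Tcf7l2 1.25 TPM, and among lineage factors Olig1 averaged 94.1 TPM and Nkx2-2 3.46 TPM. The precursor genes were low, at 8.26 TPM for Cspg4 and 7.10 TPM for Pdgfra. Mbp and Mobp held the first and second places in all 4 groups. The third place was held by Trf in 11-month 5XFAD (736 TPM), 6-month 5XFAD (788 TPM) and 6-month WT (591 TPM). In 11-month WT it was held by Plekhb1 (502 TPM) ahead of Trf (476 TPM), which overlapped in their spread.

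The stages also differed in how much libraries of 1 group varied. The within-group SD on the log2 scale had a median of 0.40 over the 19 myelinating genes (range 0.26 to 0.51), 0.36 over the 5 newly formed genes, 0.23 over the 4 lineage factors and 0.20 over the 2 precursor genes, against 0.19 over all 17483 genes tested. Of the myelinating genes, 11 of 19 had an SD above the 90th percentile of all genes. This variation was shared. In WT replicate 3 at 6 months, all 19 myelinating genes were above the mean of the other 3 libraries of the group, by 1.62 to 2.29 times (median 2.07). In 5XFAD replicate 2 at 11 months they were 1.05 to 2.22 times the mean of the other 2 libraries (median 1.51), and in WT replicate 1 at 11 months 1.29 to 1.86 times (median 1.56). Pdgfra was 0.97 times and Cspg4 1.05 times the mean of the other libraries in WT replicate 3 at 6 months. The values were 1.23 and 0.92 times in 5XFAD replicate 2 at 11 months, and 0.65 and 0.72 times in WT replicate 1 at 11 months. The newly formed genes differed among themselves. In WT replicate 3 at 6 months the phosphodiesterase Enpp6 (2.47 times), Myrf (2.12 times) and Bcas1 (1.83 times) were high with the myelin genes, while the receptor Gpr17 was 0.93 times the mean of the others.

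**Figure D1:**
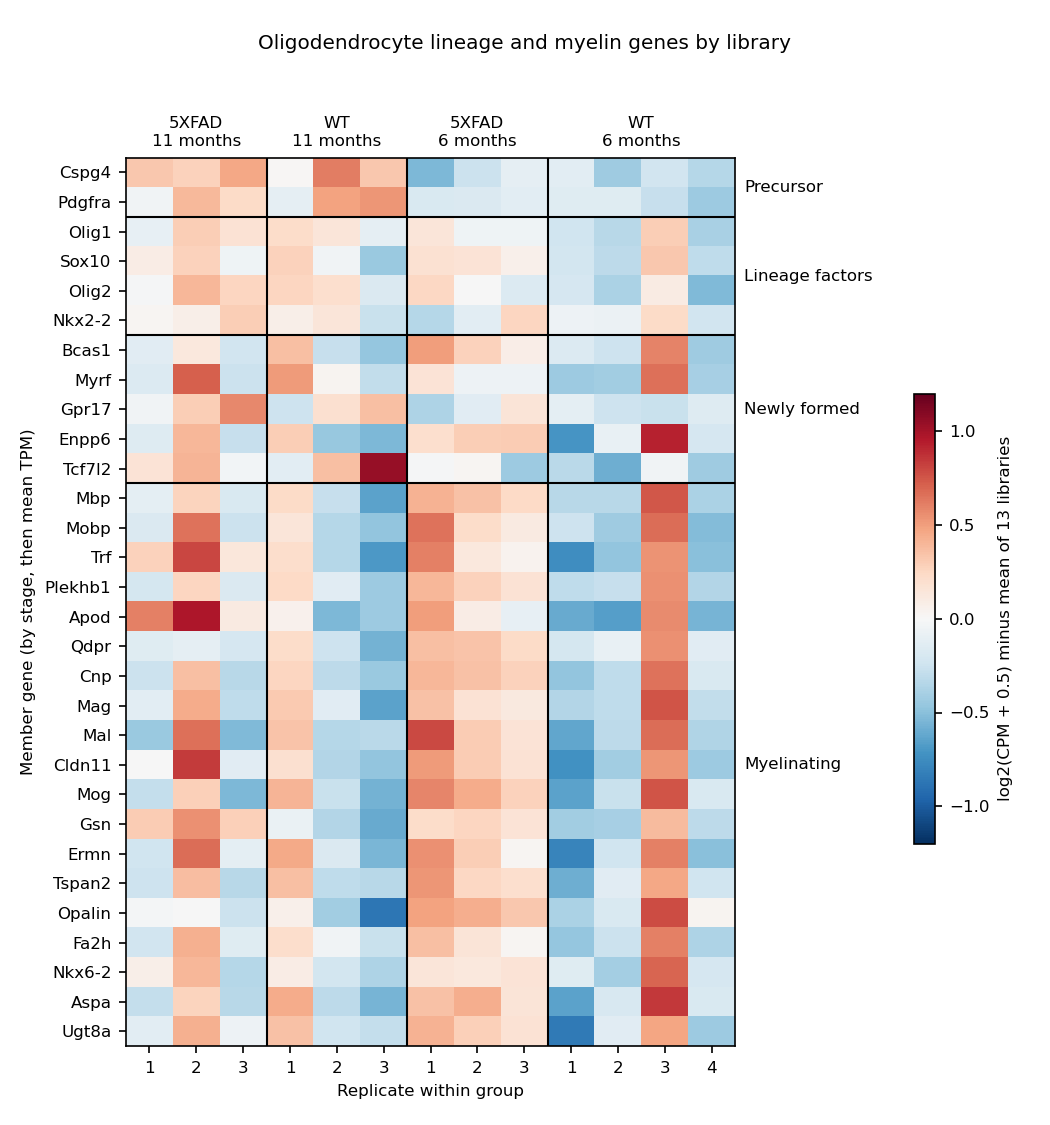
Level of each of the 30 genes in each of the 13 libraries, as the difference of log2(CPM + 0.5) from the gene's mean over all libraries (colour). Genes run down the page by stage and libraries across it by group; replicate 3 of WT at 6 months is high for all 19 myelinating genes, and the precursor genes at the top are higher in most libraries of 11 months.

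The first question was whether the lineage differs between 5XFAD and WT at 11 months. In edgeR's quasi-likelihood test with Benjamini-Hochberg adjustment, 0 of the 30 genes passed an adjusted p of 0.05, where 4.31% of all genes did (3.8% higher and 0.503% lower). An unadjusted p under 0.05 was reached by 2 of the 30, and DESeq2 called 1 (Gsn), where it called 6.45% of all genes. The log2 fold changes were positive for 26 of the 30, with a median of 0.13, against -0.03 over all genes. By stage the medians were -0.05 for the precursor genes, 0.14 for the lineage factors, 0.05 for the newly formed genes and 0.14 for the myelinating genes. Since RNA from whole tissue was measured, more cells of a type and more RNA per cell cannot be told apart here.

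Mbp had 4181, 5436 and 3993 CPM (counts relative to the library total, TMM-scaled) in the 5XFAD libraries at 11 months, against 5296, 3747 and 2895 CPM in the WT libraries. The highest 5XFAD and the highest WT library were nearly level, so the groups overlapped, and the log2 fold change was 0.19 ± 0.30 (SE). Mobp had 1495, 2636 and 1403 CPM in 5XFAD, against 1859, 1327 and 1209 CPM in WT, a log2 fold change of 0.33 ± 0.33. For both genes the high libraries were 5XFAD replicate 2 and WT replicate 1.

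The 3 secreted or shared proteins of the myelinating list had a median log2 fold change of 0.72, against 0.14 for the 11 membrane and cytoskeleton proteins and 0.04 for the 4 enzymes. Those 3 are Trf, Apod and Gsn, which had the highest log2 fold changes of the lineage genes at 11 months, and their median is the value of Gsn. The role lists were drawn up with earlier results of these data known, so this contrast is descriptive only. Gsn and Apod were chosen for this description after their values were seen. Gsn encodes gelsolin, an actin-severing protein that mature oligodendrocytes share with other cells (chromosome 2, 35256380 to 35307892, GRCm38). It had 85.8, 101.5 and 84.4 CPM in the 5XFAD libraries at 11 months, against 65.7, 54.1 and 45.5 CPM in the WT libraries. Every 5XFAD library lay above every WT library. The log2 fold change was 0.72 ± 0.19, with an adjusted p of 0.0608 by edgeR's quasi-likelihood test, short of the threshold.

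Apod encodes a lipocalin that binds lipids and that mature oligodendrocytes, fibroblasts and vessel-associated cells express (chromosome 16, 31296192 to 31314808). It had 382, 492 and 271 CPM in 5XFAD at 11 months, against 260, 172 and 185 CPM in WT. These groups did not overlap either, although 5XFAD replicate 3 was close to WT replicate 1, and the log2 fold change was 0.89 ± 0.34 (adjusted p = 0.213 by edgeR's quasi-likelihood test). Gsn and Apod were the 2 of 30 genes whose 5XFAD libraries all lay above the WT libraries at 11 months, where 10.4% of all genes did so. None of the 30 had all 5XFAD libraries below the WT libraries, where 8.76% of all genes did. Trf (chromosome 9, 103204001 to 103230444) had 488, 701 and 443 CPM in 5XFAD, against 465, 317 and 250 CPM in WT. WT replicate 1 reached above 5XFAD replicate 3, and the log2 fold change was 0.66 ± 0.34 (adjusted p = 0.386 by edgeR's quasi-likelihood test).

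The 3 genes were also set against the myelin membrane proteins of the same library. Gsn amounted to 0.913%, 0.749% and 0.970% of the summed TPM of 11 membrane and cytoskeleton proteins of myelin in the 5XFAD libraries at 11 months, against 0.541%, 0.630% and 0.666% in WT. Apod amounted to 11.0%, 9.91% and 8.22% in 5XFAD, against 5.83%, 5.43% and 7.29% in WT. Trf amounted to 14.7%, 11.5% and 12.7% in 5XFAD, against 9.12%, 7.39% and 9.03% in WT. On this scale, which was looked at after the values were seen, these were the 3 of 30 genes whose 5XFAD libraries all lay above the WT libraries, where 2.48% of all genes did so. At 6 months 2 of the 30 did (Trf and Cldn11), where 1.02% of all genes did. The sum is made of 11 of the 30 genes, Cldn11 among them, and the other myelinating genes vary with it. The shares over all genes are therefore not a like comparison, and nothing is concluded from them. There Gsn amounted to 0.567%, 0.640% and 0.651% in 5XFAD, against 0.639%, 0.656%, 0.532% and 0.704% in WT, and Apod to 6.72%, 5.64% and 5.24%, against 5.53%, 5.41%, 6.09% and 5.83%, so the groups of both overlapped. Mbp made up 57.2% to 63.2% of the same sum in all 13 libraries.

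A fit chosen after seeing the data had the mean level of 37 other mature myelin genes as a covariate. These 37 include Cd9 and Sirt2, which were themselves called at 11 months. In that fit 3 of the 30 genes were called higher in 5XFAD at 11 months, where 4.64% of all genes were called. Gsn had a log2 fold change of 0.63 ± 0.07 (adjusted p = 8.96e-05), Apod 0.70 ± 0.15 (adjusted p = 0.0165) and Trf 0.51 ± 0.11 (adjusted p = 0.0134), each by edgeR's quasi-likelihood test with Benjamini-Hochberg adjustment. Without that covariate, Gsn was called with DESeq2 (adjusted p = 0.00598), in an edgeR fit of only the 11-month libraries (adjusted p = 0.0431), where 2.43% of all genes were called, and without WT replicate 1 (log2 fold change 0.86, adjusted p = 0.0428). Over its 14 alternatives Gsn was called in 4, with adjusted p from 8.96e-05 to 0.172. The summed level of 6 microglial markers was 964 to 1211 TPM in the 5XFAD libraries at 11 months, against 268 to 397 TPM in WT, with 5 of the 6 called higher. That of 6 astrocyte markers was 1578 to 2007 TPM, against 1412 to 2059 TPM, with 1 called higher. Fibroblast and meningeal markers were at 23.7 to 39.6 TPM, against 33.9 to 45.9 TPM, with 0 of 7 called. These marker calls are from the fit without the covariate, where 3.8% of all genes were called higher. The part of these other cells in the Gsn, Apod and Trf values was not tested.

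Apod had the highest log2 fold change of the 30 genes at 11 months, while Mog, a surface glycoprotein of myelin, stood at -0.05 ± 0.36. The bases before the start of these 2 genes are shown as a contrast within the myelinating list, from RefSeq (GRCm38.p6). The Apod sequence is chr16:31314809-31315058 and the Mog sequence chr17:37023399-37023648, both of the minus strand and written 5′ to 3′, and capitals mark CG pairs.
Apod: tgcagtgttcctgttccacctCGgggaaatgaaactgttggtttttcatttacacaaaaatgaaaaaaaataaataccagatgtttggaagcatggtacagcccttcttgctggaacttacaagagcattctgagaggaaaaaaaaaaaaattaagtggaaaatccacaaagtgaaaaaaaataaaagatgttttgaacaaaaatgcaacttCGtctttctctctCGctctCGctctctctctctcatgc
Mog: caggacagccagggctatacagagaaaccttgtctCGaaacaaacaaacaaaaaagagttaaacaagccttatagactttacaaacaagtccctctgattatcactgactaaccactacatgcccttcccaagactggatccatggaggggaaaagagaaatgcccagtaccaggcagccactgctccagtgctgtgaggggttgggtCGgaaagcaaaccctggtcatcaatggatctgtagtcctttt
The Apod window holds 4 CG pairs and the Mog window 2, against a median of 6 over 32851 windows of 250 bases before mouse gene starts. RefSeq windows were matched for 22 of the 30 genes, which have 29 windows. The SOX core ACAAAG stood on either strand in 31% of those windows and in 16.5% of all windows, and the core ACAATG in 13.8% and 10.7%. The Myrf motif forms CTGGCAC and CTGGTAC stood in 10.3% and 3.45% of the windows of these genes, against 4.19% and 1.83% of all windows. The shares rest on few windows, 9 and 4 for the SOX cores and 3 and 1 for the Myrf forms. Overlapping windows of Mag are counted separately for ACAAAG and CTGGCAC. The Apod window above holds ACAAAG and the Mog window CTGGTAC on the opposite strand. These are matches of letters only.

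The remaining stages did not differ between the genotypes at 11 months beyond their spread. Cspg4 had a log2 fold change of 0.02 ± 0.15 (95% interval -0.27 to 0.31) and Pdgfra -0.12 ± 0.15 (-0.42 to 0.17). Olig1 had 126, 166 and 152 CPM in 5XFAD, against 157, 149 and 125 CPM in WT, a log2 fold change of 0.04 ± 0.17. Sox10, which drives myelin gene expression, had 74.7, 85.6 and 67.9 CPM in 5XFAD, against 85.4, 68.5 and 51.5 CPM in WT, and Olig2, which specifies the lineage, 26.7, 35.9 and 32.5 CPM against 32.4, 31.1 and 23.9 CPM. The groups of each factor overlapped.

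Bcas1, an early myelin-associated protein, had 232, 279 and 218 CPM in 5XFAD at 11 months, against 327, 210 and 185 CPM in WT, a log2 fold change of 0.01 ± 0.26. Myrf, the regulatory factor of myelin genes, had 52.7, 97.5 and 49.4 CPM in 5XFAD, against 84.3, 60.2 and 47.9 CPM in WT, a log2 fold change of 0.05 ± 0.35. Gpr17 had 33.0, 41.7 and 50.8 CPM in 5XFAD, against 28.4, 38.7 and 43.6 CPM in WT, a log2 fold change of 0.18 ± 0.18. In all 3 genes the libraries of the groups interleaved. Tcf7l2 had the lowest log2 fold change of the 30 genes, -0.35 ± 0.30, at 3.15 ± 0.56 CPM in 5XFAD and 4.04 ± 1.86 CPM in WT (SD, n = 3 each).

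**Figure D2:**
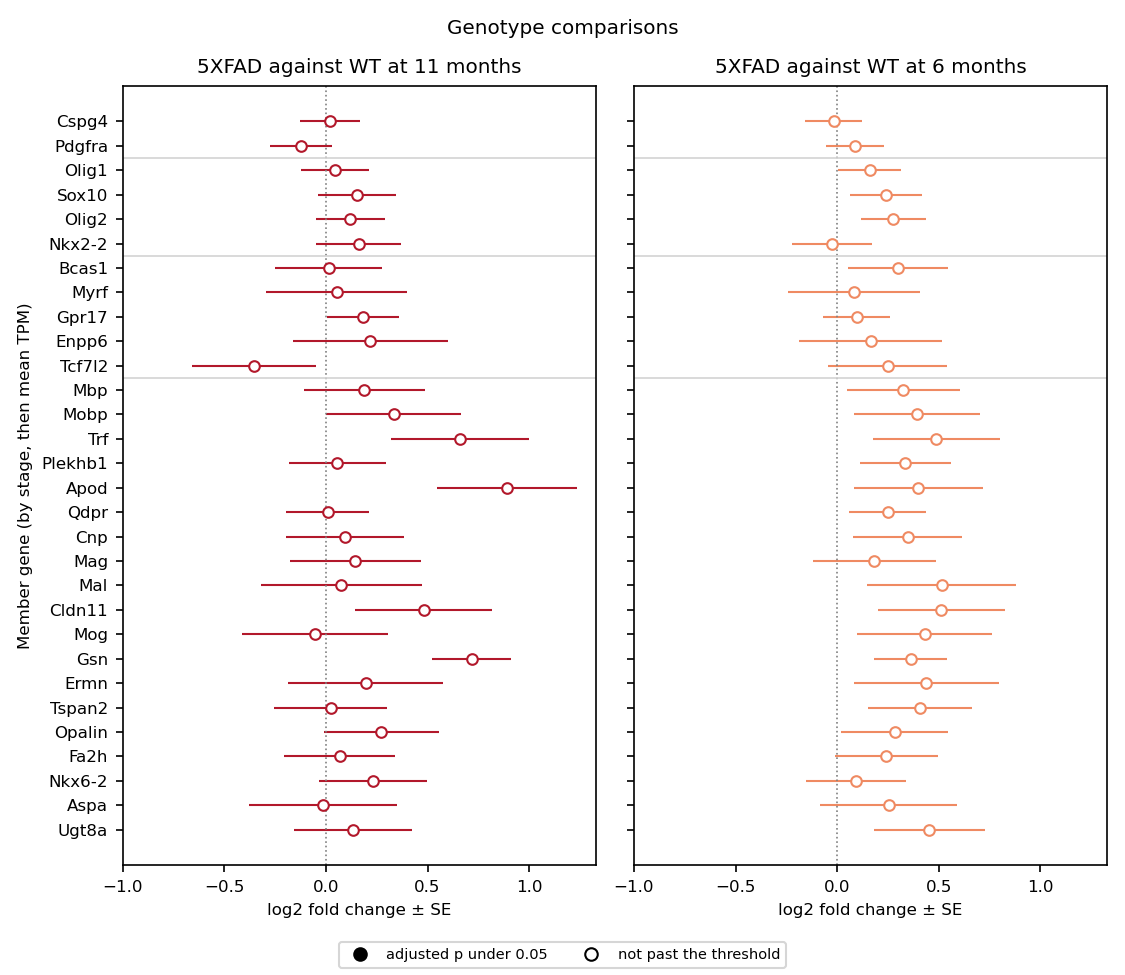
Log2 fold change of 5XFAD against WT for the 30 genes at 11 months (left) and at 6 months (right), with bars for the standard error; filled points would mark an adjusted p under 0.05. No point is filled; Apod, Gsn and Trf lie farthest right at 11 months, at 0.89, 0.72 and 0.66.

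The second question was the genotype difference at 6 months. With all libraries, 0 of the 30 genes passed the test in edgeR, where 1.32% of all genes did (1.3% higher and 0.0172% lower), 0 had an unadjusted p under 0.05 and 0 were called by DESeq2, which called 2.2% of all genes. The log2 fold changes were positive for 28 of the 30 genes, with a median of 0.28 against -0.01 over all genes. The medians were 0.03 for the precursor genes, 0.20 for the lineage factors, 0.16 for the newly formed genes and 0.36 for the 19 myelinating genes, all of which were positive. No gene had groups that did not overlap, where 6.97% of all genes had every 5XFAD library above every WT library and 5.07% had every one below.

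A single WT library moved the myelinating values. Mbp had 6049, 5793 and 5349 CPM in the 5XFAD libraries at 6 months, against 3603, 3588, 7613 and 3486 CPM in the WT libraries. Of the WT libraries, 3 lay below all 5XFAD libraries and replicate 3 lay above them all, and the log2 fold change was 0.33 ± 0.28. Mobp showed the same pattern at 2641, 1959 and 1815 CPM in 5XFAD, against 1413, 1255, 2669 and 1175 CPM in WT. Trf had 613, 440 and 413 CPM in 5XFAD, against 240, 289, 582 and 283 CPM in WT, so that replicate 3 lay within the 5XFAD range. Gsn had 81.0, 82.7 and 77.6 CPM in 5XFAD, against 51.9, 52.5, 90.2 and 55.7 CPM in WT, and Apod 355, 265 and 234 CPM against 164, 158, 371 and 170 CPM.

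Without WT replicate 3, all 30 log2 fold changes were positive, with a median of 0.59, and 24 of the 30 had an unadjusted p under 0.05, where 6.31% of all genes had one with a higher level in 5XFAD. The 5XFAD libraries then lay above all remaining WT libraries for 19 of 19 myelinating genes, 3 of 5 newly formed genes, 3 of 4 lineage factors and 0 of 2 precursor genes, where 10.8% of all genes did so. Replicate 3 was singled out for its high myelin values, so leaving it out was bound to raise the myelinating fold changes. The genes also move together, so these counts are not separate observations. By edgeR's quasi-likelihood test with Benjamini-Hochberg adjustment, 1 of the 30 was then called, Gsn (log2 fold change 0.59, adjusted p = 0.0262), where 1.17% of all genes were called (1.16% higher). With the myelin covariate and all libraries, 0 of the 30 were called at 6 months, where 1.18% of all genes were. The median over the myelinating genes was 0.66 without that library, and 0.27 to 0.40 without any other 1 library of the 6-month groups. WT replicate 3 also had the highest striatal marker level of all libraries, at 2502 summed TPM, against 1060 to 1780 TPM in the other WT libraries and 461 to 1373 TPM in the 5XFAD libraries of 6 months. At 11 months WT replicate 3 had the highest striatal level, 1915 TPM, and a myelinating sum of 5187 TPM, the lowest of its group. The part of the dissected region in the myelin values was not tested. All 5XFAD libraries of this age were male, and with sex as a covariate the median was 0.26 over the myelinating genes, 0.16 over the lineage factors, 0.03 over the newly formed genes and -0.03 over the precursor genes.

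**Figure D3:**
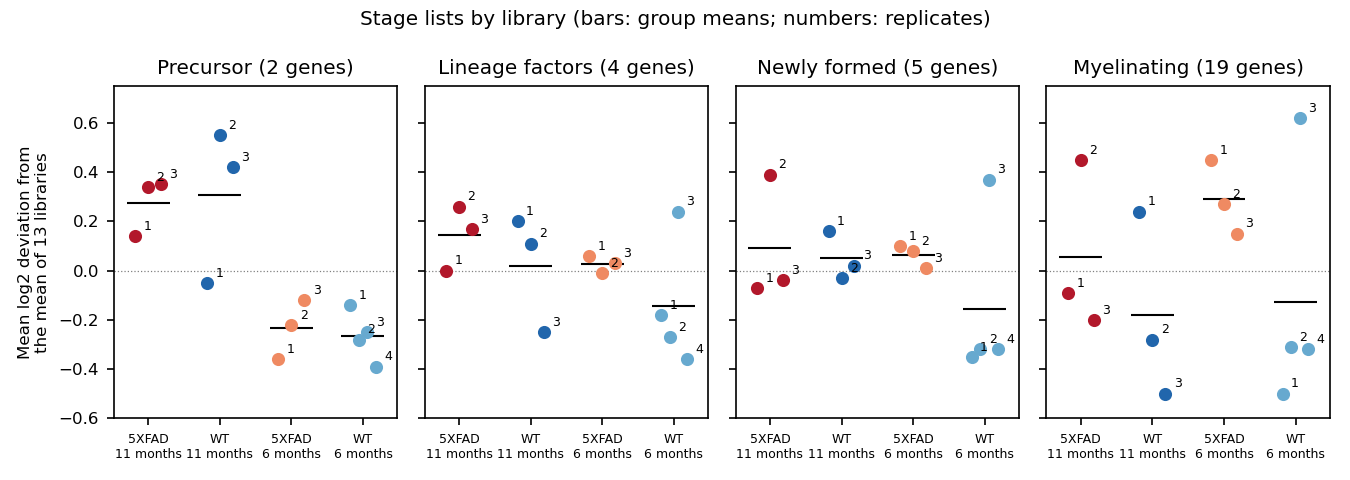
Mean log2 deviation of each stage's genes from their 13-library mean, 1 point per library with its replicate number and a bar for each group's mean. The precursor genes lie between -0.05 and 0.55 at 11 months and between -0.39 and -0.12 at 6 months; in the myelinating panel replicate 3 of WT at 6 months stands at 0.62, above its group's other libraries at -0.50 to -0.31.

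At 6 months the standard error of the log2 fold change had a median of 0.14 for the precursor genes and 0.17 for the lineage factors. For the newly formed genes it was 0.29, near the 0.28 of the myelinating genes. Pdgfra had 28.5, 28.7 and 29.5 CPM in 5XFAD, against 29.2, 29.2, 26.5 and 23.8 CPM in WT, a log2 fold change of 0.09 ± 0.14 (95% interval -0.20 to 0.37). Cspg4 had 14.4, 17.6 and 19.6 CPM in 5XFAD, against 19.3, 15.6, 18 and 16.6 CPM in WT, a log2 fold change of -0.02 ± 0.14 (-0.29 to 0.26). Gpr17 had 26.2, 30.8 and 37.7 CPM in 5XFAD, against 31.3, 28.5, 28.01 and 30.4 CPM in WT. WT replicate 3 stood among the other WT libraries for Pdgfra and Cspg4 and was the lowest, by a small margin, for Gpr17. Olig1 had 149, 130 and 130 CPM in 5XFAD, against 114, 107, 165 and 103 CPM in WT, Sox10 80.2, 78.9 and 73.2 CPM against 60.2, 56.6, 88.5 and 57.0 CPM, and Olig2 32.2, 26.9 and 24.1 CPM against 23.4, 20.7, 28.9 and 18.6 CPM. Bcas1 had 363, 309 and 269 CPM in 5XFAD, against 228, 215, 385 and 190 CPM in WT, and Myrf 66.2, 56.4 and 56.5 CPM against 43.6, 44.0, 93.4 and 44.7 CPM. In these 5 genes WT replicate 3 was the highest WT library, as among the myelinating genes.

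The difference between the genotype effects at the 2 ages was tested directly. None of the 30 genes passed in edgeR's quasi-likelihood test, all with an adjusted p of 1, where 0.00572% of all genes passed. None had an unadjusted p under 0.05, and DESeq2 called 0 of the 30. The smallest unadjusted p was that of Tcf7l2, at -0.60 ± 0.42 on the log2 scale, followed by Gsn at 0.36 ± 0.27 and Apod at 0.49 ± 0.47. With the myelin covariate, Gsn had an interaction of 0.46 ± 0.10, with an adjusted p of 0.49.

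The last question was the change between 6 and 11 months, taken within each genotype. In 5XFAD, 1 of the 30 genes rose (Cspg4) and 0 fell, where 7.23% of all genes were called (4.84% rose and 2.39% fell). In WT, 2 of the 30 rose (Cspg4 and Pdgfra) and 0 fell, where 3.71% of all genes were called (2.42% rose and 1.29% fell). The share of the 30 genes called was below that of all genes in 5XFAD, and in WT it rested on 2 genes. With the myelin covariate, 4 of the 30 were called in 5XFAD (Apod, Cspg4, Gsn and Trf), where 4.55% of all genes were. The 2 age comparisons have no library in common, but each shares its libraries with a genotype comparison.

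Cspg4 encodes the NG2 proteoglycan, which precursors and also the pericytes of brain vessels carry (chromosome 9, 56865033 to 56899870). It had 26.6, 25.8 and 29.4 CPM in 5XFAD at 11 months, against 14.4, 17.6 and 19.6 CPM in 5XFAD at 6 months. It had 21.4, 32.7 and 26.5 CPM in WT at 11 months, against 19.3, 15.6, 18 and 16.6 CPM in WT at 6 months. All 11-month libraries lay above all 6-month libraries in both genotypes. In 5XFAD 3 of the 30 genes did so (Cspg4, Pdgfra and Gsn), where 18.4% of all genes did, and in WT 2 (Cspg4 and Pdgfra), where 9.11% did. The log2 fold change was 0.67 ± 0.15 in 5XFAD (adjusted p = 0.0213) and 0.63 ± 0.14 in WT (adjusted p = 0.0337), by edgeR's quasi-likelihood test with Benjamini-Hochberg adjustment.

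Pdgfra encodes the receptor for platelet-derived growth factor, the main mitogen of precursors, and fibroblasts of the meninges and vessels express it too (chromosome 5, 75152292 to 75198215). It had 31.4, 42.6 and 37.9 CPM in 5XFAD at 11 months, against 28.5, 28.7 and 29.5 CPM in 5XFAD at 6 months. It had 30, 45.3 and 46.8 CPM in WT at 11 months, against 29.2, 29.2, 26.5 and 23.8 CPM in WT at 6 months. The groups did not overlap in either genotype, with WT replicate 1 at 11 months just above the 6-month libraries. By edgeR's quasi-likelihood test the log2 fold change was 0.37 ± 0.15 in 5XFAD (adjusted p = 0.157) and 0.58 ± 0.14 in WT (adjusted p = 0.0425), and the 5XFAD value minus the WT value was -0.21 ± 0.21 (adjusted p = 1).

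These 2 genes are the ones called with age, so the bases before their starts are shown, from RefSeq (GRCm38.p6), both of the plus strand and written 5′ to 3′, with CG pairs in capitals. The Pdgfra sequence is chr5:75152001-75152250, and the Cspg4 sequence, shortened to end at the annotated start of the gene, is chr9:56864854-56865032.
Pdgfra: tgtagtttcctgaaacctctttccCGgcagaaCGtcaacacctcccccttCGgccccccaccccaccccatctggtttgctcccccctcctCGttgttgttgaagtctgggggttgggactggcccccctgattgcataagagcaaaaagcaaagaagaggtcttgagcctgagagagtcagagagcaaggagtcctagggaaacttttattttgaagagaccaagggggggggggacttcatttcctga
Cspg4: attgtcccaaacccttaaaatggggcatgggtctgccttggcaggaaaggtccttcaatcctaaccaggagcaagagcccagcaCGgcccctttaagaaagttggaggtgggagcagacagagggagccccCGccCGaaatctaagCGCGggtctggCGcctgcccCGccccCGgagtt
The Pdgfra sequence holds 4 CG pairs in 250 bases and the Cspg4 sequence 8 in 179 bases. None of the 4 SOX and Myrf letter motifs named above stands in either sequence, and no methylation or binding was measured.

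The age calls depended on single libraries and settings. Cspg4 was called in 11 of 14 alternatives in 5XFAD, with adjusted p from 0.00131 to 0.0911, and in 8 of 15 in WT, with adjusted p from 0.00212 to 0.157. In 5XFAD its call ended without 6-month replicate 1 (adjusted p = 0.0844) or 2 (0.0601) or 11-month replicate 3 (0.0911), fits that called 236, 308 and 148 of all genes, against 1264 with all libraries. In WT it ended without 6-month replicate 1 (0.0515), 2 (0.0761) or 4 (0.0994) or 11-month replicate 2 (0.157), each by edgeR's quasi-likelihood test. Those fits called 133, 47, 0 and 2 of all genes, against 649 with all libraries, so most other genes lost their calls too. Pdgfra in WT was called in 5 of 15 alternatives, with adjusted p from 0.00548 to 0.187. Its call ended without 6-month replicate 1 (0.0668), 2 (0.074), 3 (0.0663) or 4 (0.124) or 11-month replicate 2 (0.187) or 3 (0.0755), by the same test. The fit without 6-month replicate 3 still called 424 of all genes, and that without 11-month replicate 3 called 921, against 649 with all libraries. In 5XFAD Pdgfra was called in 1 of 14 alternatives, the edgeR fit of the 5XFAD libraries alone (adjusted p = 0.0444), where 8.61% of all genes were called higher. The log2 fold change stayed positive throughout, at 0.51 to 0.78 for Cspg4 in 5XFAD, 0.46 to 0.77 for Cspg4 in WT and 0.40 to 0.76 for Pdgfra in WT.

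Markers of vessel and meningeal cells, some of which share these genes, were summed beside them. Mural cell markers, 6 genes of pericytes and vessel muscle, summed to 116 to 131 TPM in 5XFAD at 11 months, against 88.4 to 94.3 TPM at 6 months, with 2 of 6 called. In WT they summed to 117 to 147 TPM, against 90.4 to 111 TPM, with 0 of 6 called. Fibroblast and meningeal markers summed to 23.7 to 39.6 TPM in 5XFAD at 11 months, against 12.9 to 19.7 TPM at 6 months, with 3 of 7 called, and in WT to 33.9 to 45.9 TPM, against 19.8 to 73.0 TPM, with 0 of 7 called. Endothelial markers summed to 125 to 168 TPM in 5XFAD at 11 months, against 87.2 to 99.4 TPM at 6 months, with 3 of 5 called higher, and in WT to 171 to 234 TPM, against 91.9 to 126 TPM, with 4 of 5 called higher. Over all genes, 4.84% were called higher with age in 5XFAD and 2.42% in WT. No marker of these 3 lists was at 0 counts in any library, and their part in the Pdgfra and Cspg4 values was not tested.

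**Figure D4:**
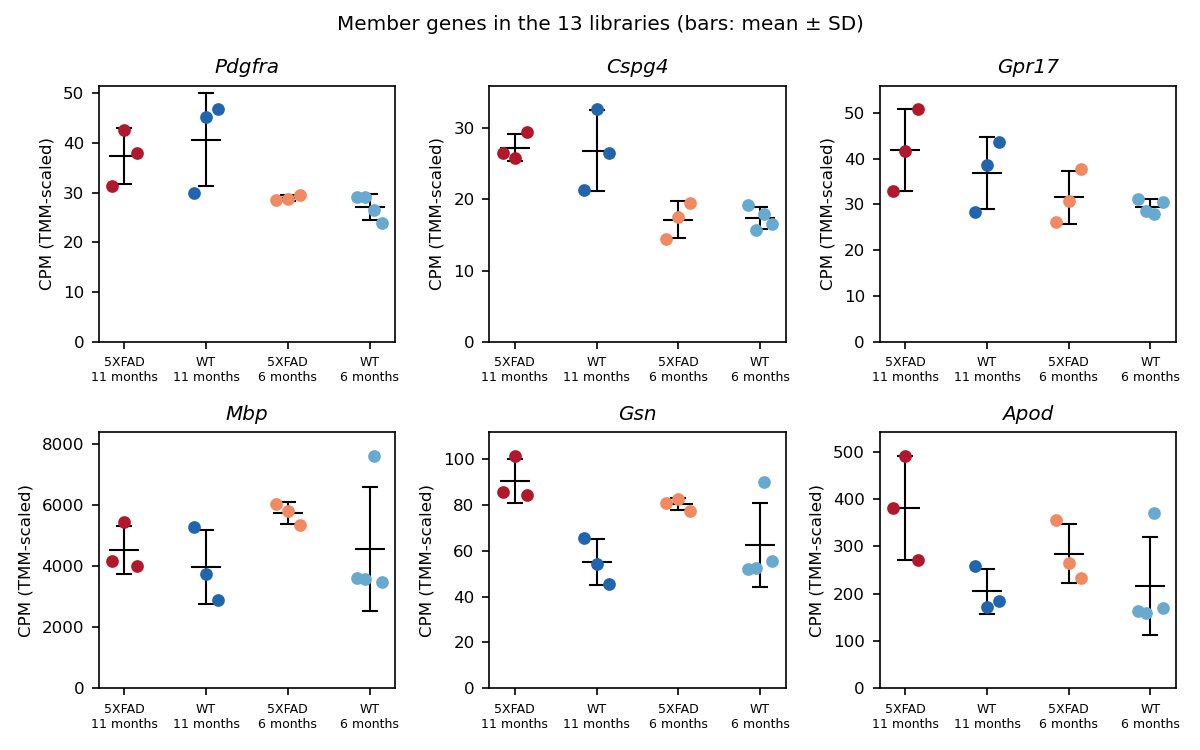
TMM-scaled CPM of 6 of the genes in the 13 libraries, with 1 point per library and bars for the mean and SD of each group. Cspg4 and Pdgfra are higher in all libraries of 11 months than in those of 6 months of the same genotype; Mbp, Gsn and Apod each have 1 WT library of 6 months far above its group.

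In the edgeR test without covariates and with all libraries, the other stages showed no called change with age. The medians of the 5XFAD and WT age comparisons were 0.52 and 0.60 for the precursor genes, 0.15 and 0.15 for the lineage factors, 0.16 and 0.18 for the newly formed genes, and -0.21 and -0.10 for the myelinating genes, against -0.001 and 0.015 over all genes. Of the 19 myelinating genes, 16 were negative in 5XFAD and 15 in WT. Gpr17, the receptor that marks cells between precursor and myelinating stages, had log2 fold changes of 0.41 ± 0.18 in 5XFAD (adjusted p = 0.176) and 0.32 ± 0.17 in WT (adjusted p = 0.258) by edgeR's quasi-likelihood test. Tcf7l2, a transcription factor of the Wnt pathway that is also expressed outside the lineage, had a log2 fold change of 0.98 ± 0.29 in WT (adjusted p = 0.0643) by the same test. Of 15 alternatives 2 called Tcf7l2 in WT. These were DESeq2 (adjusted p = 0.0191) and the edgeR fit without WT replicate 1 at 11 months (adjusted p = 0.0138). They called 1843 and 1949 of all genes, against 649. Tcf7l2 reached 2.43, 3.59 and 6.08 CPM in WT at 11 months, against 2.05, 1.63, 2.60 and 1.88 CPM at 6 months. The groups overlapped, and replicate 3 at 11 months was far above the others. That library also had the highest level of 6 thalamus markers, at 61.4 summed TPM, against 33.4 and 30.8 TPM in the other WT libraries of 11 months and 22.7 to 57.3 TPM in WT at 6 months, and their part in the Tcf7l2 value was not tested.

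Opalin, a sialylated membrane protein of central myelin, and Qdpr were the 2 genes with all 5XFAD libraries of 11 months below those of 6 months, where 17.3% of all genes were. Opalin had 33.4, 33.7 and 28.3 CPM at 11 months, against 47.5, 46.0 and 42.6 CPM at 6 months, a log2 fold change of -0.51 ± 0.28 (adjusted p = 0.29). Qdpr had 251, 259 and 242 CPM at 11 months, against 357, 353 and 327 CPM at 6 months, a log2 fold change of -0.46 ± 0.20 (adjusted p = 0.183), both by edgeR's quasi-likelihood test. In an edgeR fit of the 5XFAD libraries alone both were called lower, with adjusted p of 0.00683 for Opalin and 0.00367 for Qdpr. That fit called 14.8% of all genes (6.14% as lower) and 4 of the 30 genes, 2 of them lower. In WT none of the 30 genes had all 11-month libraries below those of 6 months, where 7.96% of all genes did. There Opalin had a log2 fold change of -0.50 ± 0.27 and Qdpr of -0.22 ± 0.19. With the myelin covariate, Opalin was called lower in WT, at -0.41 ± 0.09 (adjusted p = 0.039 by edgeR's quasi-likelihood test). In 5XFAD it was not called in that fit, at -0.25 ± 0.10 (adjusted p = 0.17 by the same test). That fit called 694 of all genes in WT and 796 in 5XFAD.

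**Figure D5:**
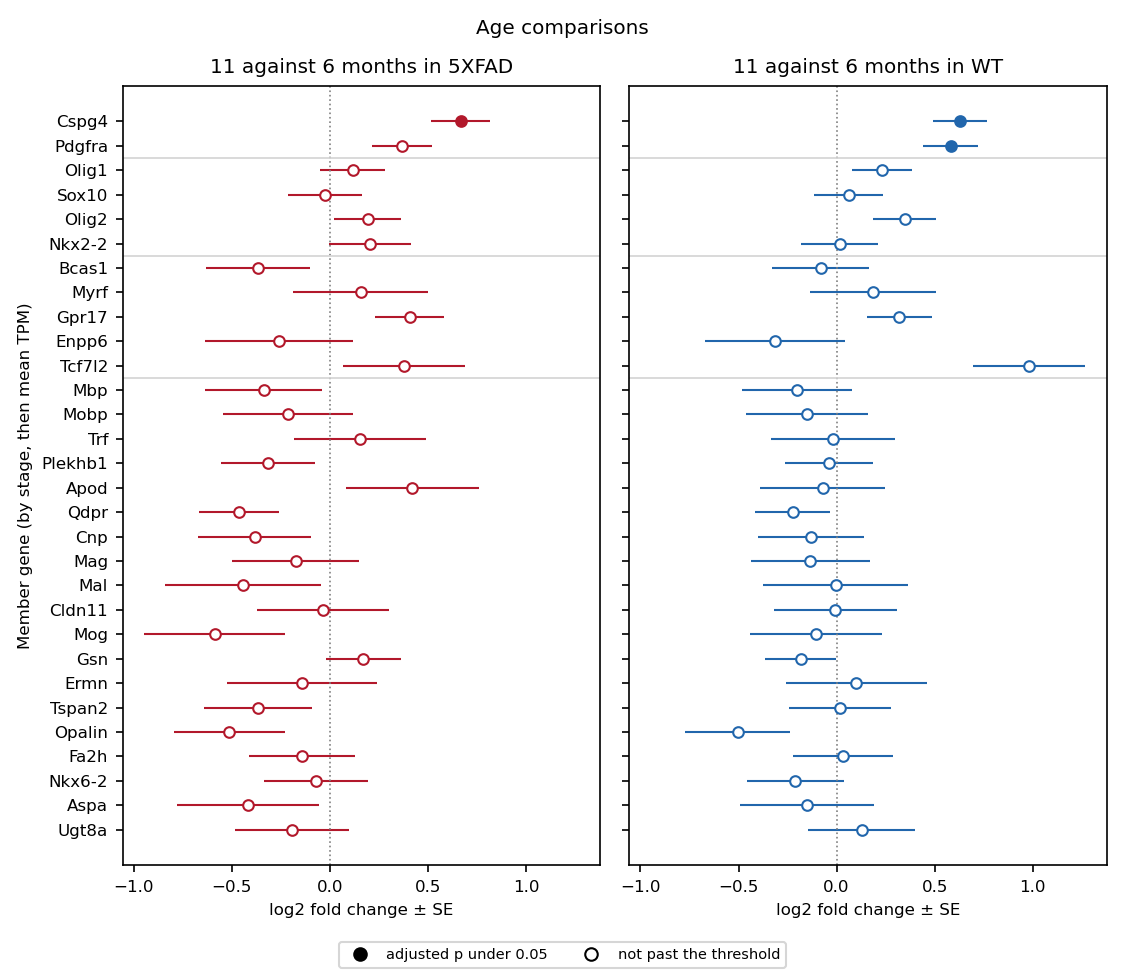
Log2 fold change of 11 against 6 months for the 30 genes in 5XFAD (left) and in WT (right), with bars for the standard error; filled points mark an adjusted p under 0.05. Cspg4 is filled in both panels and Pdgfra in WT, while most myelinating genes lie left of 0.

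Wider lists of the same stages were examined beside the 30 genes. Among 20 other precursor genes, 0 were called between genotypes at 6 months and 1 at 11 months, Serpine2, a secreted protease inhibitor that astrocytes also express (log2 fold change 0.48 ± 0.13, adjusted p = 0.0487). With age 2 of the 20 rose in 5XFAD and 3 in WT, and 0 fell. Among 20 other newly formed genes, 0 were called between genotypes at either age, and 3 rose with age in each genotype. Over all genes, 4.84% rose with age in 5XFAD and 2.42% in WT. Between genotypes 4.31% of all genes were called at 11 months and 1.32% at 6 months. All lists were chosen with earlier results of these data known, so nothing is concluded from these shares. Among 37 other mature myelin genes, Cd9, a tetraspanin that microglia and astrocytes share, rose in 5XFAD by 1.93 ± 0.18 at 11 months (adjusted p = 1.89e-05) and by 1.11 ± 0.16 at 6 months (adjusted p = 0.00223). The deacetylase gene Sirt2, abundant in oligodendrocytes, rose by 0.37 ± 0.10 at 11 months (adjusted p = 0.046), and the other 35 were not called in either genotype comparison. All of these are from edgeR's quasi-likelihood test with Benjamini-Hochberg adjustment, and the medians over the 37 genes were -0.00 at 11 months and 0.18 at 6 months.

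A list of 12 genes described in oligodendrocytes of amyloid or demyelination models was set beside the 30 lineage genes. Of the 12, 6 rose in 5XFAD at 11 months and 6 at 6 months, and 0 fell, with median log2 fold changes of 0.96 and 0.66. Over all genes, 3.8% were called higher at 11 months and 1.3% at 6 months. This list too was chosen with earlier results of these data known, so nothing is concluded from the shares. Serpina3n, a serine protease inhibitor, rose by 3.71 ± 0.18 on the log2 scale at 11 months (adjusted p = 9.39e-08) and by 1.57 ± 0.15 at 6 months (adjusted p = 7.8e-05). C4b, a complement component, rose by 3.47 ± 0.26 at 11 months (adjusted p = 5.48e-06) and by 2.03 ± 0.22 at 6 months (adjusted p = 0.000287). The genes of class I antigen presentation B2m and H2-D1 rose by 1.90 ± 0.17 and 1.81 ± 0.17 at 11 months and by 1.26 ± 0.16 and 1.06 ± 0.15 at 6 months, all by edgeR's quasi-likelihood test. The genotype effect of Serpina3n was larger at 11 months than at 6 months by 2.13 ± 0.23 (adjusted p = 0.00456 by the same test), the only gene of all those tested to pass there in edgeR, while DESeq2 called 30 genes. Astrocytes, microglia and other cells also express the genes named here, and which cells the rise came from was not tested.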

How the data were processed

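RNA of frontal cortex was sequenced in 13 libraries made with Illumina protocols, per the labels. Per the submitters' processing notes, STAR 2.7.1 and RSEM (version unstated) were used by the authors with GRCm38. The annotation and strandedness they used were not stated, so reads of Cnp, Nkx6-2 and Gpr17 cannot be told apart from those of the overlapping genes Dnajc7, Inpp5a and Lims2. The deposited expected counts are RSEM estimates, rounded here to whole numbers. The deposited TPM values gave levels between genes and 1 alternative. The deposited FPKM values were not used, and deposited transcript lengths entered 1 alternative. GENCODE M21 matched all 55536 identifiers and gave coordinates.

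After filterByExpr (count of 10, total of 15), 17483 genes were fitted in edgeR 4.0.16 (R 4.3.3) with TMM scaling and 4 group means over all 13 libraries, by the robust quasi-likelihood F-test, with Benjamini-Hochberg adjustment over all genes and a threshold of 0.05. A standard error is the size of the log2 fold change over the root of F. On simulated data of 17483 genes, 33 of 50 genes changed 2-fold were recovered for the 11-month comparison and 41 of 50 for the 6-month comparison, and of 50 genes changed 1.5-fold 15 and 23 were recovered. The changed genes were drawn at random from expressed genes, each with separate noise. The myelinating genes varied together and more widely (median within-group SD 0.40, against 0.19 over all genes tested), so these shares may be too high for them.

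Alternatives were RLE scaling, a summed count of at least 10, DESeq2 1.42.0, limma 3.58.1 on log2(TPM + 1), sex as a covariate, a transcript length offset, only the groups compared and leaving out each library. The myelin covariate was added after seeing the data. The 30 genes and all lists were chosen with earlier results of these data known. Values per library are given for genes called in any comparison and the 3 of highest mean TPM in each stage. Gsn, Apod, Opalin, Qdpr and Tcf7l2 were added after their values were seen. Genes of wider lists are named only where called between genotypes. Replicates were numbered in accession order and pair nothing.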

Additional observations from a re-analysis of the deposited data

Results flagged for a closer look

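In WT at 6 months, the only group of 4 libraries, 13 of the 30 genes had 1 library far from the others, by the gap to the nearest library divided by the range of the group (above Dixon's 95% critical value for 4 libraries), and in all 13 it was replicate 3. Chance flags about 1 in 20 groups, and the 13 genes move together, so they are not separate observations. Among structural myelin proteins, replicate 3 had 7613 CPM of Mbp, 2669 CPM of Mobp, 380 CPM of Mag, 422 CPM of Mal, 180 CPM of Cldn11 and 867 CPM of Plekhb1. Among enzymes, it had 60.2 CPM of Fa2h, which makes hydroxylated myelin lipids, and 408 CPM of Qdpr. Among secreted or shared proteins it had 582 CPM of Trf, 371 CPM of Apod and 90.2 CPM of Gsn. Of the regulators, Sox10 stood at 88.5 CPM and Myrf at 93.4 CPM. The highest ratio of gap to range was 0.978, and neither precursor gene was among the 13.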

How the results depend on the processing

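Single-gene fold changes were followed under the alternatives for all 30 genes between genotypes, and with age for Cspg4 and Pdgfra only. Of these 928 fold changes, 858 kept their side of the threshold and, where not called, moved by less than their standard error. A further 8 passed it newly, 20 lost it, 42 moved by more and none that was called reversed. Age calls that other genes gained under an alternative are outside these counts. Of 116 stage medians, all of genotype comparisons, 114 moved by less than the SD of the stage mean between libraries of a group. That SD is wide (0.18 for the precursor genes to 0.39 for the myelinating genes on the log2 scale). Within it the myelinating median at 6 months, 0.36, still reached 0.66 without WT replicate 3. The count of genes called in 5XFAD against WT at 11 months, 0 of 30, became 1 with DESeq2 and with only the groups compared (Gsn both times) and 3 with the myelin covariate, which was chosen after seeing the data. For age in 5XFAD the count of 1 became 4 with only the groups compared, a fit that called 2579 of all genes (14.8%), and 4 with the myelin covariate, where 4.55% of all genes were called. For age in WT the count of 2 became 1 with limma on log2(TPM + 1), 0 with sex as a covariate, 0 with the transcript length offset and 0 with only the groups compared. The count over all genes in that comparison went to 60 with the length offset and to 1 with only the groups compared, against 649. The count of 2 became 3 with DESeq2 (Tcf7l2 added), which called 1843 of all genes. It also became 3 with the myelin covariate (Opalin added), where 694 of all genes were called. Leaving out 1 library gave 0 to 1 called genes for the genotype comparison at 11 months, 0 to 1 at 6 months, 0 to 1 for age in 5XFAD and 0 to 3 for age in WT (0 without WT replicate 1, 2 or 4 at 6 months or 2 at 11 months). The median of the myelinating genes at 11 months ran from -0.04 without 5XFAD replicate 2 to 0.38 without WT replicate 1. On the log2(TPM + 1) scale the median of all genes shifted to -0.12 at 11 months and -0.11 at 6 months in the genotype comparisons. The causes were not tested. No paired analysis was possible because the labels give the groups no shared replicate numbers.

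The standard error of a myelinating gene had a median of 0.30 at 11 months, against 0.15 for the precursor genes.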
